A study of Mus musculus with 12 samples.

Results

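The cytokinesis and midzone genes described here are 10 genes whose products build the central spindle, assemble and close the contractile ring, or prepare the final cut between daughter cells. They are Anln, Ect2, Prc1, Kif23, Kif20a, Racgap1, Plk1, Aurkb, Cit and Cep55. They were taken by symbol, and all 10 were among the 15687 genes of the expression table. The set was chosen with earlier results of these data known.

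After the chromosomes separate, antiparallel microtubules between them are bundled into the central spindle, or midzone. Signals from the midzone and its motors activate the small GTPase RhoA at the cell equator, where a ring of actin and myosin forms and constricts. The remaining bridge between the daughter cells, centred on the midbody, is then cut by the ESCRT machinery. Most of these transcripts are known to rise late in the cell cycle, so in a tumor their levels also reflect the share of cells in G2 and mitosis.

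Poly(A) RNA was profiled in 12 tumors that the mTc11 line, a mouse lung cancer line, formed under the skin of syngeneic mice. The 6 CTL tumors grew from cells with a control shRNA and the 6 Filip1l-knockdown tumors from cells with an shRNA against Filip1l, each a mixed population of transduced cells selected with puromycin, and which of the Filip1l shRNA constructs was sequenced is not given in the sources used here. The hosts were male C57BL6/J mice aged 8 weeks that received the cells in Matrigel, and tumors were taken on day 24. The study connects FILIP1L with cytokinesis, and the comparison made here asks whether transcripts of the cytokinesis machinery differed between the groups of tumors.

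Sequencing depth was 17834745 to 29502069 reads assigned to genes for CTL and 25460564 to 32419578 for Filip1l-knockdown, and no cytokinesis gene had fewer than 338 reads in any tumor. Levels below are normalized counts, meaning read counts divided by a size factor for each tumor. Filip1l itself, the targeted gene, was at 2311 ± 211 normalized counts (SD, n = 6) in CTL and 1924 ± 165 in Filip1l-knockdown tumors, 16.7% lower (limma, log2 fold change -0.26, adjusted p = 0.00998), and 5 of 6 knockdown tumors lay below the lowest CTL tumor. CTL tumor 5 had the shallowest library, and Filip1l-knockdown tumor 1 stood farthest from the rest of its group. Epithelial markers of the line (Epcam, Krt8, Krt18, Krt19, Cdh1) were abundant, with the first 4 of them higher in the knockdown tumors, whereas the lung markers Nkx2-1 (17.2 and 39.4 normalized counts in CTL and knockdown) and Sftpc (9.76 and 29.2) were low. Skeletal muscle markers (6 of 7 higher; summed level 2435 to 12481 in CTL and 5952 to 87282 in knockdown), neutrophil markers (5 of 5 measured higher; 278 to 352 against 742 to 1153) and endothelial markers (5 of 6 higher; 2487 to 3058 against 3111 to 4891) moved with the groups. Summed ranges overlapped for the muscle markers, and also for fibroblast markers (2 of 7 lower; 160012 to 260347 against 74885 to 252720), macrophage markers (2 of 7 higher; 16251 to 22544 against 16318 to 25455), T cell markers (0 of 7 called; 862 to 2283 against 962 to 1804) and the 1 measured B cell marker (higher; 11.4 to 29.9 against 27.4 to 62.9). Their part in the results below was not tested, and in bulk tumors fewer cells of a type and less RNA per cell cannot be told apart.

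Of the 10 cytokinesis genes, Kif23 rose and Cep55 fell in the Filip1l-knockdown tumors, and the other 8 did not pass the test. Kif23 was 24.0% higher and Cep55 23.9% lower, which are the largest changes of the set in each direction. The test was limma on log2(normalized count + 1) with Benjamini-Hochberg adjustment over all 15687 genes and a threshold of 0.05. By this rule 2 of 10 cytokinesis genes were called, a share of 20%, whereas 41.9% of all genes were called (21.1% higher and 20.7% lower). On recovered whole reads edgeR and DESeq2 also called 2 of 10, against 42.2% and 44.4% of all genes. Of the genes limma called, 50.5% were higher in the knockdown tumors, and 40.1% were once the dependence of each tumor's values on GC content and length had been taken out. At the stricter rule that also asks for an absolute log2 fold change over 1, 0 of 10 were called by limma, edgeR or DESeq2, against 10.2%, 10.4% and 10.5% of all genes, and 5 of 10 had an unadjusted limma p below 0.05, against 49.1%. The 95% confidence intervals of the 10 log2 fold changes reached no farther than 0.60 from 0 in either direction, so none of them extended to a 2-fold change. The median log2 fold change was -0.07 over the 10 genes, with 6 lower and 4 higher, and 0.01 over all genes.

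**Figure D1:**
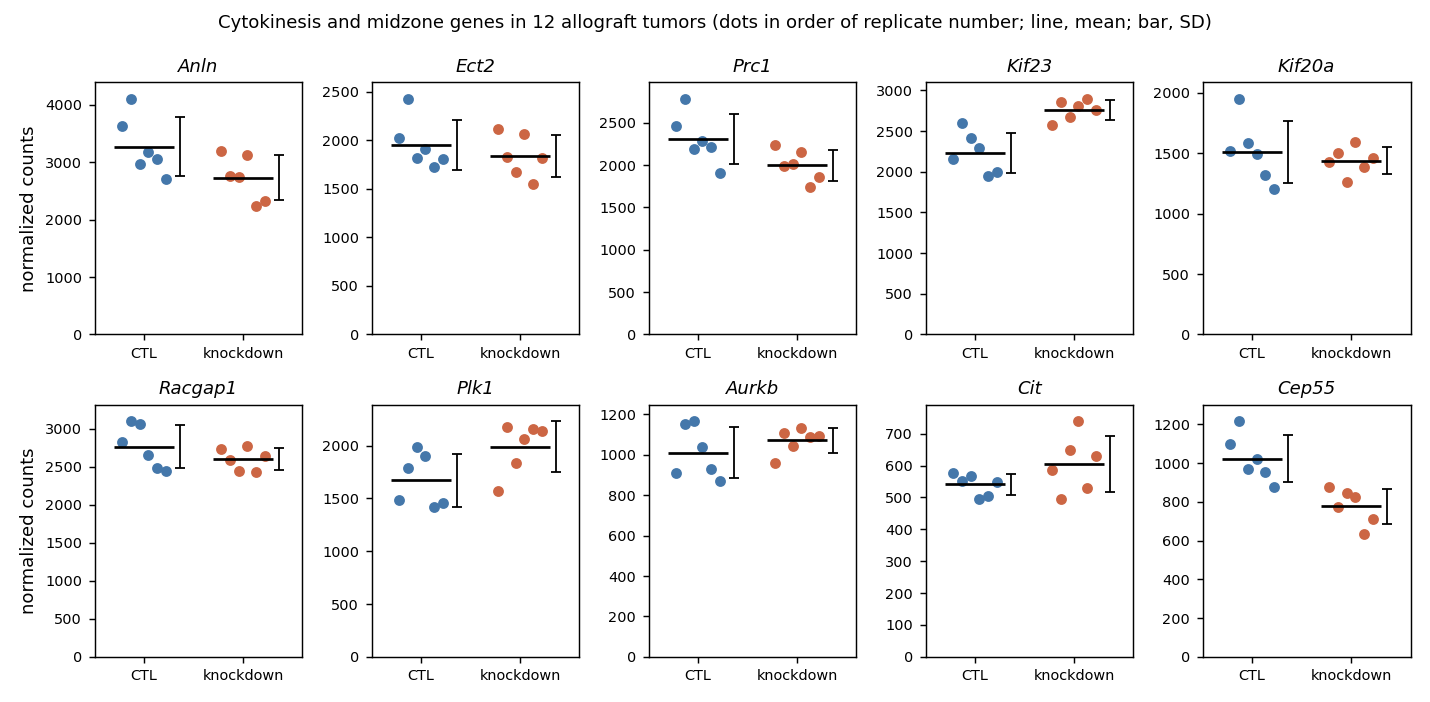
Normalized counts of the 10 cytokinesis genes (vertical axes, starting at 0) in 6 CTL and 6 Filip1l-knockdown tumors, 1 dot per tumor, with the group mean as a line and the SD as a bar. All knockdown dots of Cep55 lie below the CTL dots, 5 of 6 knockdown dots of Kif23 lie above the CTL dots, and the groups overlap for the other 8 genes.

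Kif23 encodes MKLP1, the kinesin that joins with the product of Racgap1 to form centralspindlin, the complex that bundles midzone microtubules and anchors the ring to the membrane. Kif23 (ENSMUSG00000032254, chr9:61915905-61946774, minus strand, GRCm38) ranged from 1946 to 2594 normalized counts in CTL tumors with a median of 2228, and from 2570 to 2897 in knockdown tumors with a median of 2784. The single overlap was between the lowest knockdown tumor, tumor 1, and the highest CTL tumor, tumor 2. With group means of 2235 ± 248 and 2760 ± 121 (SD, n = 6 each), Kif23 had a log2 fold change of 0.31 (SE 0.07, 95% CI 0.16 to 0.46, adjusted p = 0.00245). Exact two-sided permutation of the labels, with 924 arrangements, gave p = 0.00433. Kif23 kept its call when each tumor was left out in turn (0.27 to 0.36), when each chromosome's median was subtracted (0.32, adjusted p = 0.00202) and when the trends of all genes with GC content and transcript length were removed (0.24, adjusted p = 0.0275).

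Racgap1 (ENSMUSG00000023015, chr15:99620496-99651656, minus strand), the partner of Kif23 in centralspindlin, differed by less than its spread. It ranged from 2449 to 3101 normalized counts with a median of 2744 in CTL tumors and from 2437 to 2777 with a median of 2616 in knockdown tumors, so that the groups overlapped while 3 of 6 CTL tumors lay above every knockdown tumor. Its log2 fold change was -0.08 (95% CI -0.23 to 0.06, adjusted p = 0.361). Within each tumor the ratio of Kif23 to Racgap1 normalized counts does not depend on the size factor. That ratio ran from 0.764 to 0.864 in CTL tumors (mean 0.808 ± 0.0378, SD, n = 6) and from 0.941 to 1.19 in knockdown tumors (1.06 ± 0.0852), with no overlap, a difference of 0.39 on the log2 scale that stayed between 0.36 and 0.43 when any tumor was left out. The ratio was chosen after the values of Kif23 had been seen, so it is given without a test. Ratios to Racgap1 were without overlap between groups for 15.4% of all genes, and 9.84% were higher in the knockdown tumors. Among all 45 pairs of cytokinesis genes, 7 had ratios without overlap, of which 5 held Kif23 and 3 held Cep55, and 0 held neither.

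**Figure D2:**
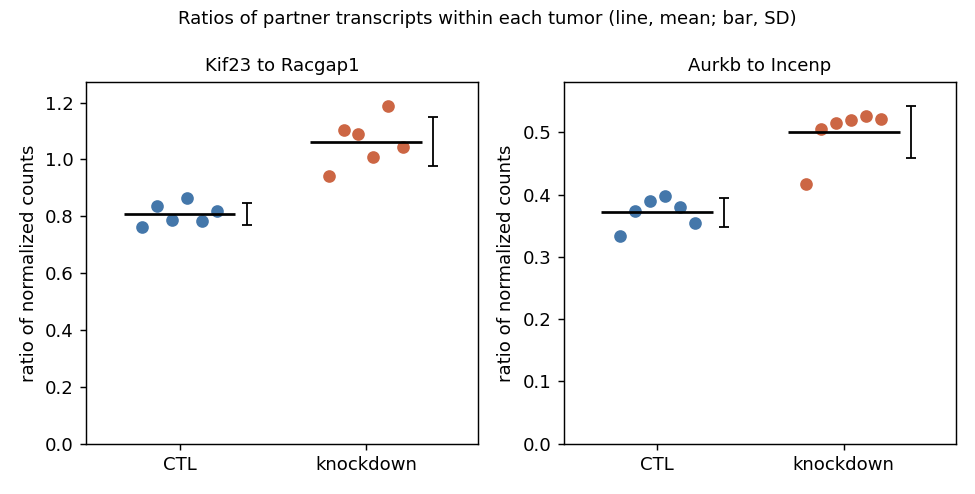
Ratio of normalized counts within each tumor (vertical axes, starting at 0) for Kif23 to Racgap1 and for Aurkb to Incenp in CTL and Filip1l-knockdown tumors, with the mean as a line and the SD as a bar. In both panels every knockdown tumor lies above every CTL tumor, and the lowest knockdown dot is tumor 1 in each.

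The other midzone motors and bundlers showed smaller differences. Prc1 encodes the protein that crosslinks antiparallel microtubules of the midzone (ENSMUSG00000038943, chr7:80294450-80316259, plus strand). It was at 1907 to 2783 normalized counts in CTL tumors (median 2249) and 1741 to 2235 in knockdown tumors (median 2002), with 2 of 6 knockdown tumors below the CTL range. Its log2 fold change was -0.20 (95% CI -0.39 to -0.02) and its adjusted p was 0.0735, on the far side of the threshold. It came within the threshold without CTL tumor 6 (-0.26, adjusted p = 0.0229) or without Filip1l-knockdown tumor 1 (-0.24, adjusted p = 0.0406), and with the GC and length trends removed (-0.22, adjusted p = 0.0377). Without CTL tumor 2, Prc1 moved the other way, to -0.15 (adjusted p = 0.159). Kif20a encodes MKLP2, the kinesin that carries the chromosomal passenger complex to the midzone (ENSMUSG00000003779, chr18:34624613-34633277, plus strand). It was at 1201 to 1950 normalized counts in CTL tumors (median 1505) and 1262 to 1589 in knockdown tumors (median 1447), so that the knockdown tumors lay inside the CTL range. Its log2 fold change was -0.06 (95% CI -0.27 to 0.16, adjusted p = 0.686), and it turned to 0.02 without CTL tumor 2.

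Aurkb and Plk1 encode the mitotic kinases of the set. Aurkb, the kinase of the chromosomal passenger complex (ENSMUSG00000020897, chr11:69045647-69051664, plus strand), was at 873 to 1167 normalized counts in CTL tumors (median 984) and 960 to 1135 in knockdown tumors (median 1091), again inside the CTL range. Its log2 fold change was 0.09 (95% CI -0.08 to 0.26, adjusted p = 0.399), and it turned to -0.10 when the GC and length trends were removed. Plk1, which phosphorylates midzone proteins and promotes the recruitment of Ect2 (ENSMUSG00000030867, chr7:122159439-122169873, plus strand), was at 1415 to 1992 normalized counts in CTL tumors (median 1635) and 1567 to 2175 in knockdown tumors (median 2103). Of the 6 knockdown tumors 4 lay above the highest CTL tumor, while tumor 1 lay low in the CTL range. The log2 fold change of Plk1 was 0.25 (95% CI 0.03 to 0.48, adjusted p = 0.0664; exact permutation p = 0.0563). It passed the threshold without Filip1l-knockdown tumor 1 (0.32, adjusted p = 0.0137), without CTL tumor 3 (0.31, adjusted p = 0.0290) or without CTL tumor 4 (0.29, adjusted p = 0.0467), whereas removal of the GC and length trends brought it to 0.10 (adjusted p = 0.467).

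Ect2, Anln and Cit act at the equatorial cortex. Ect2 encodes the exchange factor that activates RhoA (ENSMUSG00000027699, chr3:27097222-27153878, minus strand). It was at 1719 to 2425 normalized counts in CTL tumors (median 1863) and 1552 to 2110 in knockdown tumors (median 1822), with broad overlap, and its log2 fold change was -0.08 (95% CI -0.28 to 0.12, adjusted p = 0.508). Anln encodes anillin, the scaffold that links RhoA, actin, myosin and septins in the ring (ENSMUSG00000036777, chr9:22332012-22389188, minus strand). It was at 2701 to 4103 normalized counts in CTL tumors (median 3111) and 2245 to 3197 in knockdown tumors (median 2753), and 2 of 6 knockdown tumors lay below the CTL range. Its log2 fold change was -0.26 (limma, 95% CI -0.49 to -0.02, adjusted p = 0.0759, exact permutation p = 0.0736). It passed the threshold without CTL tumor 6 (-0.31, adjusted p = 0.0405) or without Filip1l-knockdown tumor 1 (-0.31, adjusted p = 0.0364). Without CTL tumor 2, Anln moved the other way, to -0.19 (adjusted p = 0.165). Cit encodes citron kinase, which organizes the midbody, and also a shorter isoform without the kinase part, and the table counts the gene as a whole (ENSMUSG00000029516, chr5:115845278-116008947, plus strand). It was at 496 to 576 normalized counts in CTL tumors (median 550) and 495 to 739 in knockdown tumors (median 609), with 4 of 6 knockdown tumors above the CTL range and 1 just below it. Its log2 fold change was 0.15 (95% CI -0.05 to 0.35, adjusted p = 0.212).

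Cep55 encodes the midbody protein that recruits the ESCRT machinery for abscission (ENSMUSG00000024989, chr19:38055011-38074423, plus strand). It ranged from 875 to 1216 normalized counts in CTL tumors with a median of 995, and from 634 to 874 in knockdown tumors with a median of 800. The groups did not overlap, which held for 1 of the 10 genes and for 21.5% of all genes, but CTL tumor 6 and Filip1l-knockdown tumor 1 were separated by less than the 0.882 or 1.01 normalized counts that 1 read is worth in their libraries. With means of 1022 ± 121 and 777 ± 91.3 (SD, n = 6 each), Cep55 had a log2 fold change of -0.39 (SE 0.09, 95% CI -0.60 to -0.19, adjusted p = 0.00387; exact permutation p = 0.00216, the smallest the design allows). The call held when any tumor was left out (-0.44 to -0.34) and with the GC and length trends removed (-0.49, adjusted p = 0.000846). It did not hold relative to the other genes of its chromosome: the median log2 fold change of the 458 genes on chromosome 19 whose mean reached 50 normalized counts was -0.35, and after the chromosome medians were removed Cep55 stood at -0.04 (95% CI -0.23 to 0.16, adjusted p = 0.787). Under that fit 1 of the 10 genes, Kif23, was called, against 39.6% of all genes, and with the GC and length trends removed 3 were, against 43.8%. The neighbours of Cep55 were lower in the knockdown tumors as well, namely Hhex (-1.05), Exoc6 (-0.50) and Myof (-0.56) before it and Ffar4 (-0.76), Rbp4 (-1.60) and Fra10ac1 (-0.47) after it.

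**Figure D3:**
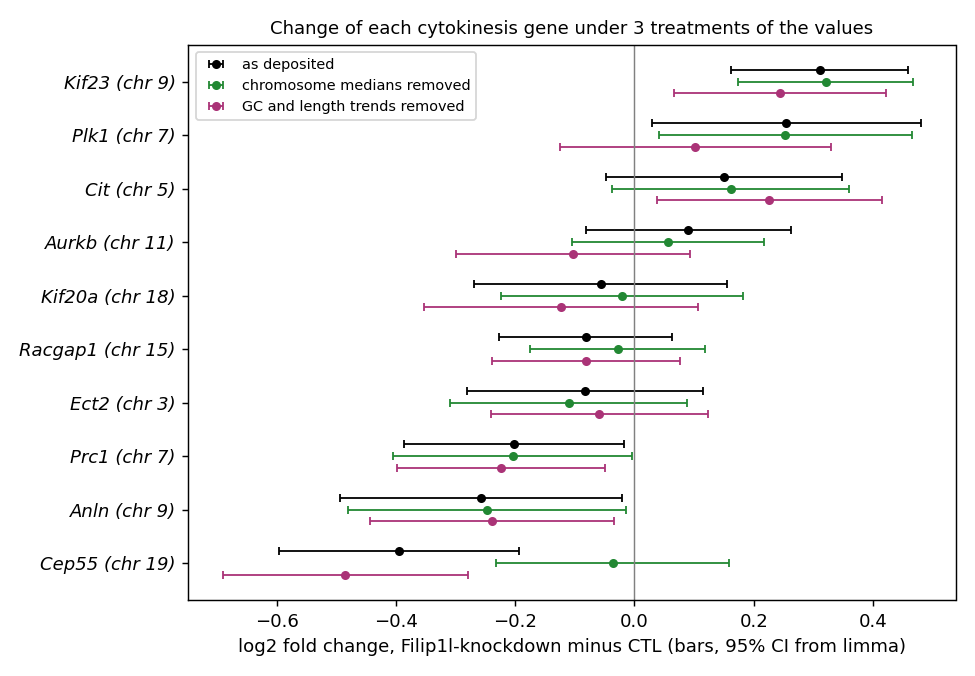
Log2 fold change of each cytokinesis gene, Filip1l-knockdown minus CTL (horizontal axis, bars 95% CI from limma, n = 6 per group), with the deposited values, with each chromosome's median removed, and with the trends with GC content and length removed. Kif23 stays above 0 in all 3, Cep55 moves from -0.39 to -0.04 when the chromosome medians are removed, and Plk1 moves from 0.25 to 0.10 when the GC and length trends are removed.

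Compared per kilobase of the longest annotated transcript, the 10 genes covered a wide range of levels in CTL tumors. Plk1 was at 760 ± 114 normalized counts per kb (SD, n = 6), Anln at 710 ± 111, Kif23 at 658 ± 72.9, Prc1 at 633 ± 80.6 and Racgap1 at 618 ± 63.0, and each of these differed from its neighbour in the order by less than the SD. Aurkb (519 ± 65.2), Ect2 (477 ± 62.3), Kif20a (411 ± 70.2) and Cep55 (371 ± 43.7) followed below a wider gap, in steps no larger than the larger SD of the neighbours. Cit stood alone at 56.9 ± 3.46 normalized counts per kb, at percentile 30.7 of all genes, whereas the other 9 lay between percentiles 69.3 and 84.2. In the knockdown tumors Plk1 (905 ± 110) and Kif23 (812 ± 35.5) led, and Prc1 (548 ± 50.1) stood below Anln (593 ± 85.3), Racgap1 (582 ± 31.5) and Aurkb (549 ± 31.8). The order depended on the length used: over the union of all annotated exons Kif23 ranked 8 rather than 3 of 10 in CTL tumors, while Plk1 stayed first and Cit last.

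Tumors of the same group differed in these genes together. CTL tumor 2 was the highest of its group for 7 of 10 genes and CTL tumor 6 the lowest for 6, and Filip1l-knockdown tumor 4 was above its group mean for 10 of 10 while tumor 5 was the lowest for 5. After the group means were removed, the 10 genes fell into sets that varied together over the 12 tumors. The sets were drawn after the values were seen, and the correlations are descriptions over tumors whose composition and depth move all genes. Anln, Prc1, Cep55 and Ect2 had Pearson r between 0.80 and 0.97 for each pair, and Kif23, Plk1 and Aurkb between 0.81 and 0.90. Across these sets the values were low, down to -0.19 for Anln with Plk1, and Kif20a and Racgap1 lay between the sets (0.88 with each other). Cit followed none of the others, with r of at most 0.39. Filip1l-knockdown tumor 1 showed the contrast most plainly, being the highest of its group for Anln, Prc1, Cep55 and Ect2 and the lowest for Kif23, Plk1 and Aurkb.

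The sets differed in GC content and so did the tumors. Exon GC content was 56.0% for Plk1 and 52.5% for Aurkb, but 46.3% for Kif23, 45.3% for Anln, 44.4% for Cep55, 43.3% for Prc1 and 40.2% for Ect2. The ratio of Plk1 to Anln ran from 0.409 to 0.671 in CTL tumors and from 0.490 to 0.960 in knockdown tumors. The 4 lowest ratios were in CTL tumors 1, 2 and 5 and Filip1l-knockdown tumor 1 (0.409, 0.435, 0.464 and 0.490), which were also the 4 tumors with the lowest slope of all genes on GC content (-0.05, -0.08, -0.03 and -0.04 log2 units per 10 percentage points). Their slopes on length were 0.12, 0.12, 0.07 and 0.04 log2 units per doubling, in a range from -0.13 to 0.12 over the tumors. CTL tumor 6, not among the 4, was at 0.08. The part of GC content or of length in the differences between the sets was not tested beyond the fit with both trends removed.

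**Figure D4:**
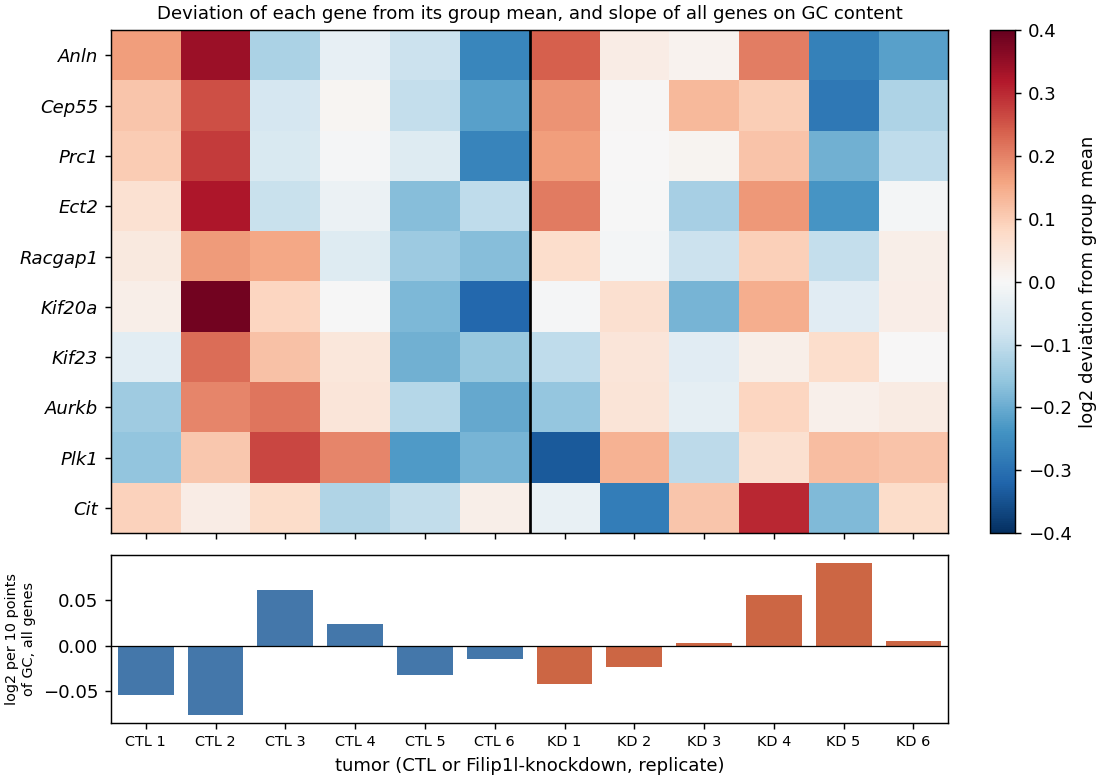
Top, log2 deviation of each cytokinesis gene (rows) from its group mean in each of the 12 tumors (columns, CTL left and Filip1l-knockdown right), red above and blue below the mean. Bottom, slope of all genes' deviations on exon GC content in the same tumors, in log2 units per 10 percentage points of GC. Filip1l-knockdown tumor 1 is red for Anln, Cep55, Prc1 and Ect2 and blue for Kif23, Aurkb and Plk1.

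Promoters of late cell cycle genes are known for a short element, the cell cycle genes homology region (CHR), bound by the DREAM and MuvB complexes, often with CCAAT boxes bound by NF-Y nearby. RefSeq promoters on GRCm38.p6, each from 250 bases before to 50 bases after a start, were matched by symbol for 8 of the 10 genes (not Aurkb and Kif20a). The CHR letters TTTGAA, searched on both strands, were in 7 of 8, against 20.2% of all 27025 genes with a promoter, and CCAAT was in 5 of 8, against 41.1%. The variant CHR letters TTCGAA (1.80% of all genes) and the E2F-type letters TTTCCCGC (1.24%), TTTGGCGC (0.585%) and TTCCCGCC (2.52%) were in 0 of 8, and Cit held neither TTTGAA nor CCAAT. Among the 29 spindle, kinetochore and condensin genes with a promoter, 21 held TTTGAA. The runs below show where these letters lie near the start of transcription for genes of each co-varying set and for Racgap1, from 70 bases before to 30 bases after the start that lies farthest downstream where RefSeq gives more than 1, except Plk1, for which bases 11 to 40 after the start are shown. Capitals mark TTTGAA or CCAAT, or the reverse complement of either. Each is written 5′ to 3′ on the strand of the gene.
Anln, chr9:22389177-22389276, minus strand: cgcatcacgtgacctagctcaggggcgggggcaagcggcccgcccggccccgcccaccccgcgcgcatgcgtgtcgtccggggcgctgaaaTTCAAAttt
Prc1, chr7:80294406-80294505, plus strand: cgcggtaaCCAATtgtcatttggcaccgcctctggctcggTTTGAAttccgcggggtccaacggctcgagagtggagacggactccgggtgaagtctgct
Ect2, chr3:27153825-27153924, minus strand: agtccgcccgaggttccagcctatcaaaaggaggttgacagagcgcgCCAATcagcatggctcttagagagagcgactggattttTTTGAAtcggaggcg
Cep55, chr19:38054971-38055070, plus strand: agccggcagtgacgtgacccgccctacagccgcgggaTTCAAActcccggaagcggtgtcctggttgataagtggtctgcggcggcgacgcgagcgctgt
Kif23, chr9:61946770-61946869, minus strand: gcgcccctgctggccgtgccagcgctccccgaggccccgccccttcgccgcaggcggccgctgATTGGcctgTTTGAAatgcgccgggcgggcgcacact
Plk1, chr7:122159445-122159474, plus strand: gtaacgttcccagcgccgcgTTTGAAttcg
Racgap1, chr15:99651627-99651726, minus strand: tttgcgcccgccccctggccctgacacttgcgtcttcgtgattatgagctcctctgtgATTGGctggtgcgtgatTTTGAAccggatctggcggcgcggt
TTTGAA began at base 3 after the start in Kif23 and at base 6 in Racgap1, with an inverted CCAAT at bases -7 to -3 and -12 to -8 before it. In Prc1 a CCAAT at -62 and a TTTGAA at -30 both lay before the start, in Cep55 an inverted TTTGAA lay at -33 to -28, and in Plk1 the CCAAT lay at -14, outside the run shown, and the TTTGAA at 31. The promoters of Anln and Cep55 held no CCAAT. Both centralspindlin genes thus carried the same letters in the same order near the start. Prc1, Ect2 and Plk1 held them in that order as well, with the first element not inverted, so the order was not particular to centralspindlin. How often this order occurs among all promoters was not tested. A match is a description of the letters and not of binding.

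Genes were also grouped into lists around the members. The first holds 8 further midzone kinesins and chromosomal passengers, of which 1 rose and 3 fell (4 of 8 called, median log2 fold change 0.06). Of all genes 21.1% were called higher and 20.7% lower. Cdca8, which encodes the passenger protein borealin, rose from 952 to 1111 normalized counts (0.23, adjusted p = 0.0479), and this call was lost under 9 of 18 alternative settings. Kif20b, a midzone kinesin also known as MPP1, fell from 1203 to 806 (-0.57, adjusted p = 0.00019) and Incenp, the scaffold of the passenger complex, from 2722 to 2146 (-0.34, adjusted p = 0.000822). Both lie on chromosome 19, as Cep55 does, and with the chromosome medians removed Kif20b stood at -0.21 (adjusted p = 0.0729) and Incenp at 0.02 (adjusted p = 0.829). The remaining gene that fell, Clasp1 on chromosome 1, went from 2143 to 1781 normalized counts (-0.27, adjusted p = 0.0013). Clasp1 kept its call with the chromosome medians removed (-0.27, adjusted p = 0.000514) and with the GC and length trends removed (-0.19, adjusted p = 0.0164). The ratio of Aurkb to Incenp within a tumor ran from 0.334 to 0.398 in CTL and from 0.416 to 0.526 in knockdown tumors, without overlap. This ratio was chosen after the values had been seen, and ratios to Incenp were without overlap for 29% of all genes, 26.5% being higher in the knockdown tumors. The other passenger gene, Birc5, encoding survivin, was at 1011 and 1186 normalized counts (0.24, adjusted p = 0.0542).

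Of 25 contractile ring and septin genes 4 rose and 8 fell (48% called, near the 41.9% of all genes, median -0.06). Relative to Rpl7 the split became 8 higher and 2 lower, where 31% of all genes were called higher and 7.74% lower. Myh14, which encodes the heavy chain of non-muscle myosin IIC, rose from 1057 to 5332 normalized counts (2.34, adjusted p = 1.94e-06), while Myh10, the heavy chain of myosin IIB, fell from 704 to 459 (-0.65, adjusted p = 0.00993). Myh9, the heavy chain of myosin IIA, was at 42453 and 41735 normalized counts (-0.03, adjusted p = 0.804). Diaph3, a formin that nucleates actin filaments, rose (0.53, adjusted p = 0.000395), and Myl9, a myosin regulatory light chain, fell (-0.72, adjusted p = 0.00489). Rhoa, the GTPase that Ect2 activates, was at 14064 and 13478 (-0.06, adjusted p = 0.357). Muscle and fibroblasts also express genes of this list, and the muscle markers moved with the groups as given above.

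Of 18 ESCRT abscission genes 9 rose and 2 fell (61.1% called, median 0.14). Of all genes 41.9% were called, 21.1% higher and 20.7% lower. Chmp6 rose from 1286 to 1838 normalized counts (0.51, adjusted p = 4.38e-05) and Chmp2b from 2520 to 3486 (0.46, adjusted p = 7.38e-05), both encoding ESCRT-III subunits. Spast, which encodes the microtubule-severing enzyme spastin, fell by 0.26 on the log2 scale (adjusted p = 0.00278), and Vps4a, an ATPase that disassembles ESCRT-III, fell by 0.26 (adjusted p = 0.000901). Its relative Vps4b rose by 0.26 (adjusted p = 0.00153) and kept its call with the chromosome medians removed (0.25, adjusted p = 0.00148). These proteins also serve endosomes and the nuclear envelope, and the list says nothing about which use its changes concern. With the GC and length trends removed, 5 of these genes were called higher and 4 lower (median 0.045), against 17.6% and 26.2% of all genes.

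Few genes of the wider mitotic programme were called, against 41.9% of all genes (21.1% higher and 20.7% lower). Of 22 genes of mitotic entry, checkpoint and exit, 4 rose and 0 fell (18.2% called; median 0.02), among them Bora, an activator of Aurora A and Plk1 (0.66, adjusted p = 0.000654), and Cdc20, an activator of the anaphase-promoting complex (0.39, adjusted p = 0.00414; 0.20 with adjusted p = 0.127 once GC and length trends were removed). Of 34 spindle, kinetochore and condensin genes 1 rose and 4 fell (14.7% called; median 0.01), namely Dlgap5 up (0.41, adjusted p = 0.00174) and Spag5 (-0.39), Kif11 (-0.34), Ckap2 (-0.24) and Zwint (-0.31) down. Of 30 DNA replication genes 1 rose and 10 fell, and 19 were not called (36.7% called, median -0.12). Of all genes 41.9% were called, 21.1% higher and 20.7% lower. Relative to Rpl7 the same list had 2 higher and 0 lower, against 31% and 7.74% of all genes. The genes that fell included Mcm5, a subunit of the replicative helicase (-0.44, adjusted p = 0.00177), and Gins2 (-0.43, adjusted p = 0.00135). Neither passed relative to Rpl7 (adjusted p = 0.138 and 0.107). Both lie on chromosome 8, and with the chromosome medians removed they stood at -0.24 (adjusted p = 0.0408) and -0.23 (adjusted p = 0.0414). Rrm2, a subunit of ribonucleotide reductase, rose (0.22, adjusted p = 0.0348) and lost that call when any of 7 tumors was left out. Relative to the mean of the spindle genes in each tumor, Kif23 (0.32) and Cep55 (-0.38) kept their calls, and Anln (-0.25, adjusted p = 0.0335) and Prc1 (-0.19, adjusted p = 0.0492) joined them, which made 4 of 10 against 30.8% of all genes.

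Among 25 regulators of mitotic gene transcription 3 rose and 6 fell (36% called, against 41.9% of all genes, median -0.10). The E2F activator E2f2 rose from 146 to 353 normalized counts (1.27, adjusted p = 6.41e-07) and the pocket protein gene Rb1 from 750 to 1566 (1.05, adjusted p = 3.93e-07), while E2f1 fell from 703 to 456 (-0.62, adjusted p = 1.82e-05) and Rbl2, a pocket protein of the DREAM complex, from 2042 to 1386 (-0.56, adjusted p = 7.61e-05). Also called were Rbbp4 (-0.23, adjusted p = 0.000797), E2f4 (-0.36, adjusted p = 9.64e-05), Tfdp2 (-0.38, adjusted p = 0.000725) and Nfya (-0.19, adjusted p = 0.0117), all lower. Cdkn1a was called higher (0.87, adjusted p = 0.000408). E2f4 lies on chromosome 8 and stood at -0.16 (adjusted p = 0.0313) with the chromosome medians removed. Among regulators known to act on CHR promoters, 3 that did not pass the test were chosen for their role: Foxm1 was at 1537 and 1388 normalized counts (-0.14, adjusted p = 0.210), Mybl2 at 483 and 573 (0.26, adjusted p = 0.0546), and Lin9 at 457 and 428 (-0.10, adjusted p = 0.412).

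Chromosome position ran through these lists. Of the 172 cytokinesis and listed genes, 6 lie on chromosome 19, and all 6 were lower and called, where 57.6% of all genes on that chromosome were called lower. The 5 on chromosome 14, Bora, Diaph3, Dlgap5, Chmp7 and Rb1, were all higher and called, against 56.9% of all genes there called higher. The 11 on chromosome 8 were all lower, 6 of them called, against 39.8% called lower. Over the genes whose mean reached 50 normalized counts, the median log2 fold change was -0.35 on chromosome 19 (458 genes). It was 0.39 on chromosome 14 (452 genes) and -0.19 on chromosome 8 (702 genes). After the chromosome medians were removed, 0 of 6, 1 of 5 and 5 of 11 of these genes were called by limma. Those on chromosome 8 then included Ist1, which was called higher (0.17, adjusted p = 0.0154) and had not been called before (-0.03, adjusted p = 0.734). Bora then stood at 0.27 (adjusted p = 0.0816), Diaph3 at 0.15 (adjusted p = 0.177), Dlgap5 at 0.03 (adjusted p = 0.822), Kif11 at 0.02 (adjusted p = 0.863) and Vps4a, on chromosome 8, at -0.06 (adjusted p = 0.327). On the remaining chromosomes 41 of 150 were called, 19 higher and 22 lower, against 39.6% of all genes there, and Kif23 was among them.

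**Figure D5:**
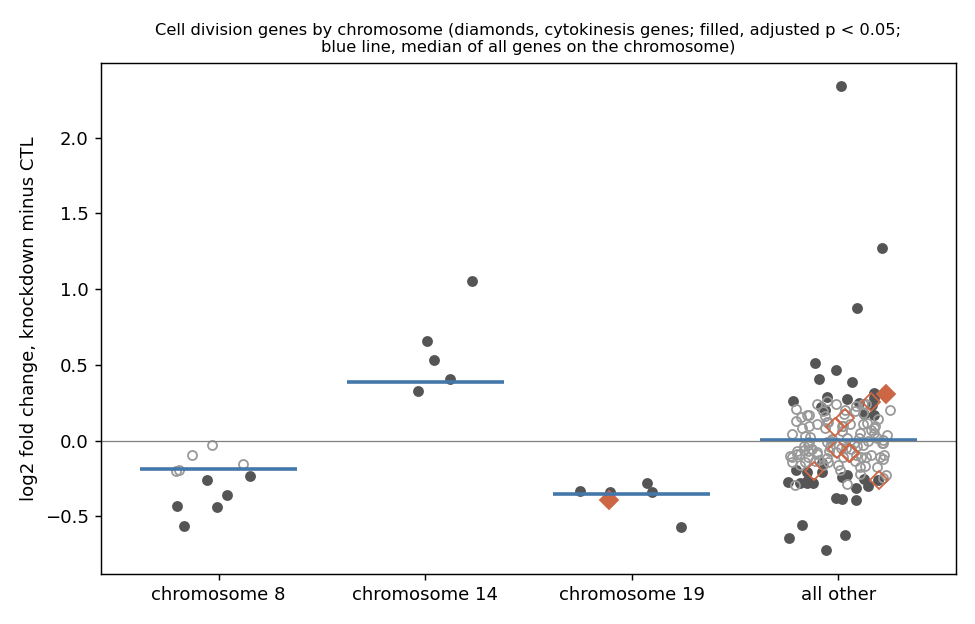
Log2 fold change, Filip1l-knockdown minus CTL (vertical axis), of the 172 cytokinesis (diamonds) and other cell division genes (circles) on chromosomes 8, 14 and 19 and on all other chromosomes. Filled symbols have an adjusted limma p below 0.05. The blue line is the median of the genes there whose mean reached 50 normalized counts. The 6 genes on chromosome 19, Cep55 among them, lie near the line at -0.35, and the 5 on chromosome 14 lie above 0.

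The 8 genes outside the set whose group-centred levels followed the mean of the 10 cytokinesis genes most closely over the 12 tumors were Tpx2 (Pearson r 0.950), Bub1b (0.945), Tacc3 (0.915), Dlgap5 (0.911), Knstrn (0.907), Rcc1 (0.905), Nek2 (0.904) and Ttk (0.900). Of these only Dlgap5, on chromosome 14, passed the test between groups, and Tpx2, the closest, was at 2093 and 2102 normalized counts (0.02, adjusted p = 0.905). Some neighbours share exon bases with these genes, and whether counting told the strands apart is not known. Rccd1 overlaps 11.1% of the exon bases of Prc1, Cdc23 overlaps 29.3% of those of Kif20a, and the transcript model Gm44985 overlaps 7.09% of those of Plk1, all on the opposite strand. Rccd1 was low (62.8 and 59.3 normalized counts), and Cdc23 was at 1320 and 1222 (-0.11, adjusted p = 0.190). If counting ignored the strand, the level of Kif20a is less certain than that of Prc1.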

How the data were processed

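RNA-seq libraries of 12 allograft tumors (6 CTL, 6 Filip1l-knockdown) were made by the submitters with a poly(A) protocol and a kit that is not described as directional. The submitters' processing notes name bcl2fastq 2.20, Trimmomatic 0.36, STAR 2.5.2b, featureCounts of Subread 1.5.2 and DESeq2, with mm10. The strand setting used for counting is not given in the sources used here. The deposited table holds normalized counts (a signal per gene, read counts divided by the authors' size factors). In every tumor all values were whole multiples of 1 step within 1e-08, which recovered whole reads for 100% of values. For CTL tumors 1 and 4 and Filip1l-knockdown tumor 1 the step is within about 1% of 1, so these columns are close to raw counts.

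Groups were compared with limma 3.58.1 (trend on the mean) on log2(normalized count + 1) over all 15687 genes, because the values are not counts. A filter at a mean of 5 removed 0 genes. A fold change on this scale understates that of low genes. Single genes were tested by exact two-sided permutation of 924 arrangements. On recovered reads, edgeR 4.0.16 (quasi-likelihood) called 6626 genes and DESeq2 1.42.0 called 6960, against 6566. Scripts were tested on simulated data. Positions and exon GC content came from GENCODE vM21 (99.8% of identifiers matched). Named were the 10 genes, of each list the called genes with the largest change in each direction, Filip1l, and the 8 genes most like the set. Birc5, Clasp1, Vps4b, Ist1, Myh9, Rhoa, Foxm1, Mybl2, Lin9, Rbbp4, E2f4, Tfdp2, Nfya, Cdkn1a, Ckap2, Zwint, the neighbours of Cep55 and the exon-sharing genes were added after their values were seen. Members and lists were chosen with earlier results of these data known. The labels call the tumors of a group biological replicates. The groups share replicate numbers, but the deviations of same-numbered tumors correlated between -0.27 and 0.10, so the numbers did not pair them.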

Additional observations from a re-analysis of the deposited data

How the results depend on the processing

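Of the 10 cytokinesis genes, 2 were called with the values as deposited, and Kif23 kept its direction and call under 18 of 18 alternative settings (0.24 to 0.50) and Cep55 under 16, the exceptions being removal of the chromosome medians (-0.04) and scaling to Rpl7 (-0.21, adjusted p = 0.296). The count of called cytokinesis genes was 4 with a covariate of Y-linked genes (45.4% of all genes called), 4 relative to spindle genes (30.8%), 5 relative to replication genes (38.8%), 1 with chromosome medians removed (39.6%), and 4 without CTL tumor 5 and Filip1l-knockdown tumor 1 (41.5%), a choice made after seeing the data. With a replicate block, although the numbers did not pair the tumors, it was 4 (37.6% of all genes), Anln (adjusted p = 0.0276) and Prc1 (adjusted p = 0.0484) being added. Relative to Rpl7, Anln was at -0.07 (adjusted p = 0.765) and Prc1 at -0.02 (adjusted p = 0.941). In that setting Plk1 (0.44, adjusted p = 0.00203) and Aurkb (0.28, adjusted p = 0.0380) were called higher, as were 31% of all genes. Relative to replication genes Anln and Prc1 were at -0.13 (adjusted p = 0.358) and -0.07 (adjusted p = 0.533). There Plk1 (0.38, adjusted p = 0.00735), Aurkb (0.22, adjusted p = 0.0323) and Cit (0.28, adjusted p = 0.0402) were called higher, as were 27.7% of all genes. Leaving out 1 tumor gave 2 to 5, with 5 without Filip1l-knockdown tumor 1 (44.2% of all genes) and 4 without CTL tumor 6 (38.4%), so these counts of 10 lie near the share of all genes. Directions turned for Ect2 (0.10 and 0.046), Kif20a (0.13 and 0.073) and Racgap1 (0.10 and 0.048) relative to Rpl7 and to replication genes, for Kif20a without CTL tumor 2 (0.020, the upper end of a range from -0.12 when each tumor was left out), for Aurkb with GC and length trends removed (-0.10), and for Incenp (0.020) and Kif11 (0.023) with chromosome medians removed. None of these values passed the threshold. Called genes in the lists were 1 of the midzone and 3 of the spindle genes with chromosome medians removed (39.6% of all genes). With GC and length trends removed, 14 of the regulators were called (43.8% of all genes). Relative to Rpl7, 9 of the mitotic entry and 2 of the replication genes were (38.7% of all genes). Relative to replication genes, 9 mitotic entry and 12 spindle genes were (38.8%). Relative to spindle genes, 6 contractile ring and 6 ESCRT genes were (30.8%). Leaving out 1 tumor gave 3 to 7 mitotic entry and 4 to 8 spindle genes, the most without CTL tumor 2. Scaling to Rpl7 moved the median of all genes to 0.19 and scaling to replication genes to 0.14, and calls were higher in the knockdown tumors in 80.0% and 71.5% of cases, and in 40.1% with GC and length trends removed, against 50.5% with the values as deposited. Relative to Rpl7 the difference of Filip1l itself was -0.077 (adjusted p = 0.648). The cause of these shifts was not tested. Counting depth was no limit for the 10 genes, whereas 6 tumors a group allow no exact p below 0.00216.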
